A study of Mus musculus with 3 samples.

Results

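Endothelial nuclei of the newborn mouse aortic valve that were classed by their summed UMIs of Grid1 and Col23a1 numbered 781, out of 21140 deposited nuclei and 2557 nuclei that passed an endothelial gate. Grid1 encodes a delta-type glutamate receptor subunit that binds cerebellins and takes part in cell contacts, and Col23a1 encodes a transmembrane collagen. The tissue was the aortic valve structure of mice at postnatal day 1. All samples carried the allele tm1.1(EGFP)Skom of Scx, the scleraxis gene, on a B6.Cg background, and this allele holds EGFP. Aortic roots were flash frozen and combined into 3 pools of 22 to 24 roots, and nuclear RNA was read with the gene expression part of the 10x Genomics Multiome assay. The 3 pools form 1 group, so every comparison is between classes of nuclei of the same pools, and no treated or mutant group exists. Litter, sex and the zygosity of the allele are not given in the sources used here.

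A nucleus was kept with at least 1000 UMIs (unique molecular identifiers, each standing for 1 captured RNA molecule) and a mitochondrial share of at most 5%, which left 14073 nuclei. The endothelial gate asked for UMIs of at least 4 of the 8 genes Pecam1, Cdh5, Ptprb, Tie1, Egfl7, Tek, Emcn and Erg. It also asked for at most 1 UMI of the lymphatic genes Prox1 and Mmrn1 and less than 0.5% of UMIs from the cardiac muscle genes Ryr2, Ttn, Myh6 and Tnnt2. A Grid1 Col23a1 nucleus had at least 3 UMIs of Grid1 and Col23a1, and more of these than of 2 other gene sets together. Those sets were Rtl4, Cytl1, Myrip and Gkn3, and Kcnc2, Wnt9b, Pthlh and Wnt4. By the same form of rule, 794 nuclei were Rtl4 Cytl1 nuclei, 228 were Kcnc2 Wnt9b nuclei and 754 met none of the rules. These 1776 nuclei are the other endothelial nuclei below.

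Endothelial cells line vessels, heart chambers and valve leaflets, and they differ by site. Endocardium, the lining of the heart, is marked by Npr3, Nfatc1 and Nrg1, and it signals to the myocardium and to the cells of the valve cushions. Capillary endothelium carries genes of fatty acid uptake and transport such as Fabp4 and Cd36 and the water channel gene Aqp1. Arterial endothelium carries connexins and Notch ligands and lies on elastin.

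The members were chosen by their UMIs of the genes in these rules, so the levels of the rule's own genes are a description. In counts scaled to 1000000 UMIs of a class and pool (CPM), Grid1 was at 1023, 1188 and 1421 in the Grid1 Col23a1 nuclei of pools 1, 2 and 3, and Col23a1 was at 1369, 1407 and 1483. Among the other endothelial nuclei the means were 72.0 CPM for Grid1 and 160 CPM for Col23a1. Both genes were present in 70.8% of the members, Col23a1 alone in 24.2% and Grid1 alone in 4.99%. Emcn, which encodes the sialomucin endomucin, was at 1549, 1790 and 2002 CPM against a mean of 591 CPM in the other endothelial nuclei. Pecam1 at 822 ± 106 CPM (SD, n = 3 pools), Cdh5 at 322 ± 41.4 CPM and Tie1 at 339 ± 39.7 CPM were all present, whereas nuclei with the cardiac muscle genes and at most 1 gate gene held 7.77, 3.05 and 2.38 CPM. Both sides of that comparison were chosen on these gate genes, so it is no check of the label. The 18 endothelial genes outside the rule summed to 3449 to 3888 CPM in the members and 3911 to 4713 CPM in the other endothelial nuclei. Prox1, which the gate limits to 1 UMI, was at 59.4 ± 8.79 CPM in the members and 17.0 ± 3.76 CPM in the other endothelial nuclei. The limit on Prox1 and Mmrn1 left 2718 of the 3584 kept nuclei with at least 4 gate genes. Its part in the share of members and in the differences below was not tested.

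Around the threshold of the rule, 57 members had 3 Grid1 and Col23a1 UMIs and 205 endothelial nuclei had 2, where the members alone also had to hold more of these UMIs than of the other sets. Enox1, a gene outside the rule that encodes a cell-surface oxidase, was at 118 CPM in the first and 46.9 CPM in the second, and it was at 773 CPM in the 410 members with more than 10 such UMIs. Fabp4 ran the other way, with 183, 264 and 67.3 CPM. Across the threshold Nrg1 went from 173 CPM at 2 UMIs to 591 CPM at 3, but it was at 214 CPM in the 60 members with 4. At 5 to 10 UMIs Nrg1 was at 375 CPM, so it showed no steady step. Dkk2 went from 298 CPM at 2 UMIs to 126 CPM at 3 and 19.5 CPM at 4, and it was at 56.0 CPM at 5 to 10. A further 301 endothelial nuclei had at least 3 Grid1 and Col23a1 UMIs but no more of them than of the other sets, with a median of 6036 UMIs per nucleus. Of the members, 481 held a UMI of another set.

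**Figure D1:**
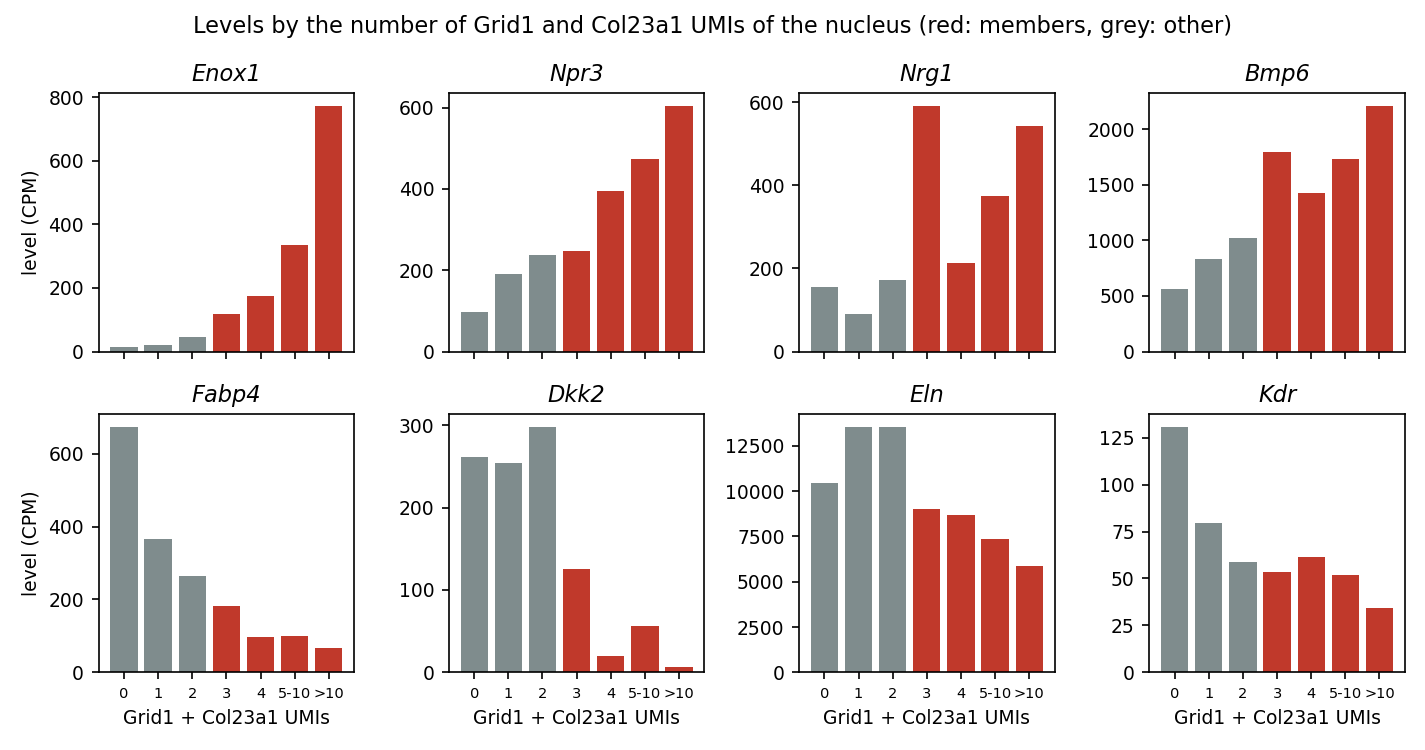
Levels of 8 genes (y axes, CPM) by the summed Grid1 and Col23a1 UMIs of the nucleus (x axes), over endothelial nuclei of all pools, with members in red and nuclei under 3 UMIs in grey. Enox1 rises from 15.7 CPM at 0 UMIs to 773 CPM above 10, and Fabp4 falls from 675 to 67.3 CPM; bars are sums over nuclei with no error.

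The members made up 28.0%, 32.9% and 33.5% of the endothelial gate in pools 1, 2 and 3. The Wilson 95% intervals, which cover counting error only, were 25.7 to 30.5%, 29.3 to 36.6% and 29.9 to 37.3%. The mean was 31.5 ± 2.99% (SD, n = 3 pools). Rtl4 Cytl1 nuclei made up 29.3 ± 6.14% and Kcnc2 Wnt9b nuclei 9.25 ± 1.68%. Of all kept nuclei, members were 5.70 ± 0.628%. The share depended on depth, and with nuclei thinned to 1000 UMIs before the rule was applied it was 15.8%.

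**Figure D2:**
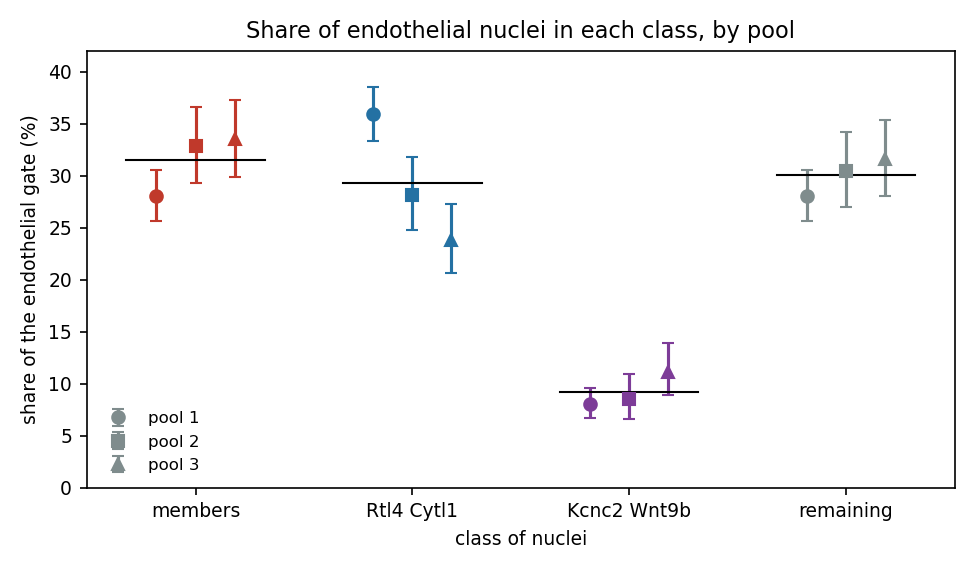
Share of the endothelial gate (y axis, %) in each class of nuclei (x axis), with 1 symbol per pool, Wilson 95% intervals as bars and the mean over pools as a line. Members take 28.0 to 33.5% in the 3 pools, above the Kcnc2 Wnt9b nuclei in each pool.

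Depth differed between classes and was lower in pool 3. The members' median was 4957, 4661.5 and 3445 UMIs per nucleus in pools 1, 2 and 3, and their summed counts were 2204010, 1119388 and 877325 UMIs. The other endothelial nuclei had medians of 5453.5, 5656 and 3728, and the Kcnc2 Wnt9b nuclei among them 6947, 6718 and 3762. Among the members, pools 1 and 3 shared 1 cell barcode, pools 2 and 3 shared 1 and pools 1 and 2 shared 0. UMI counts were summed per pool and class and tested with edgeR's quasi-likelihood test with the pool as a block, after the genes of the rule were taken out. Adjusted p-values below are Benjamini-Hochberg values over all genes tested. The gene sets that cut the classes came from an earlier division of these same nuclei, so a low p-value is no independent evidence that the class exists, and it measures only the spread between the 3 pools.

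Against the other endothelial nuclei, the Grid1 Col23a1 nuclei had more RNA of Enox1, of the endocardial genes Nrg1 and Npr3, and of the secreted factors Bmp6 and Edn1. They had less of the capillary genes, of elastin, of the Wnt antagonist Dkk2 and of the flow-responsive factors Klf2 and Klf4. Of 12408 genes tested, 831 (6.7%) were higher and 1322 (10.7%) lower at an adjusted p under 0.05. At a change of at least 2-fold, 232 (1.87%) were higher and 446 (3.59%) lower. Without the block for pool, 1124 genes in all were called in place of 2153 (17.4%), and without pool 2 the number was 1360.

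Enox1 was at 554, 564 and 556 CPM in the members and 34.0, 45.2 and 21.9 CPM in the other endothelial nuclei, a log2 difference of 4.05 ± 0.141 (SE, edgeR adjusted p = 1.82e-10). The members of every pool were more than 10 times above the others, which sat at the level of cardiac muscle nuclei with 32.2 CPM. With each nucleus thinned to 1000 UMIs, 31.6 ± 0.883% of members had an Enox1 UMI, against 2.88 ± 0.262% of cardiac muscle nuclei, and without thinning the shares were 52.9% and 12.03%. Median depths of these 2 classes were 4431 and 5438 UMIs. UMIs of Enox1 were present in 414 of the 781 members, and at this depth a nucleus without one cannot be called negative.

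The other 11 leading rises were Dscam, Slc22a23, Gabrb1, Susd4, Sorcs1, Hs3st4, Rtn1, Adgrg3, Dgki, Frem1 and Unc5d, with log2 differences from 2.23 to 3.22. Several are best known from neurons. Gabrb1 encodes a GABA receptor subunit, and it was at 56.7, 64.3 and 67.2 CPM in the members and 10.7, 4.94 and 8.53 CPM in the others. Dscam encodes an adhesion molecule of the immunoglobulin family, and it was at 28.1, 27.7 and 31.9 CPM against 3.66, 3.18 and 1.60 CPM. Gabrb1 had UMIs in 122 members and Dscam in 57, and at this depth a nucleus without one cannot be called negative. Dgki, a diacylglycerol kinase, was at 417, 570 and 584 CPM against 90.0, 113 and 114 CPM. Hs3st4, a heparan sulfate sulfotransferase, varied most between pools, at 87.6, 256 and 162 CPM against 12.3, 49.4 and 38.9 CPM. Frem1, an extracellular matrix protein, was at 201, 241 and 247 CPM against 39.5, 52.6 and 59.2 CPM.

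The 12 leading falls were Ly6c1, Ptprr, Nts, Ly6a, Slc26a10, Klk8, Dkk2, Aplnr, Adamts8, Apold1, Dipk2b and Lhx6. Dkk2, which encodes a secreted Wnt antagonist, was at 28.6, 21.4 and 42.2 CPM in the members and 259, 283 and 206 CPM in the others, a log2 difference of -3.06 ± 0.175 (edgeR adjusted p = 1.14e-08). Nts, the neurotensin gene, was at 3.63, 8.93 and 9.12 CPM against 57.4, 82.3 and 81.0 CPM. Among the others, the Kcnc2 Wnt9b nuclei held Nts at 364 ± 56.7 CPM and Adamts8 at 201 ± 124 CPM, well above the means of all others at 73.6 and 37.6 CPM. Ly6c1, a surface antigen of endothelial and myeloid cells, was at 1.36, 1.79 and 3.42 CPM against 23.7, 39.9 and 41.0 CPM. All 12 rises and 12 falls kept their direction and their call under every alternative in which they could be tested.

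Enox1, the gene with the largest rise, and Dkk2, 1 of the 12 falls, are shown by the 250 bases before their start in RefSeq. Dkk2 was taken as the fall with the highest CPM in the other endothelial nuclei, which does not rank the genes by abundance. The build was GRCm38.p6, which is not the build named in the submitters' processing notes. Capitals mark GGAAAA or its reverse complement TTTTCC, the core letters read by NFAT factors, searched on both strands. Enox1 lies at chr14:77156513-77156762 on the + strand and Dkk2 at chr3:132085042-132085291 on the + strand.
Enox1: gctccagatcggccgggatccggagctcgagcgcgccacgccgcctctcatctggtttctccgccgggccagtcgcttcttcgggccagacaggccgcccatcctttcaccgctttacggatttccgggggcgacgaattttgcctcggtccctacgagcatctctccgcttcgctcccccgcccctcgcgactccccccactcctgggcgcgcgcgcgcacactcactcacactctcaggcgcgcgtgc
Dkk2: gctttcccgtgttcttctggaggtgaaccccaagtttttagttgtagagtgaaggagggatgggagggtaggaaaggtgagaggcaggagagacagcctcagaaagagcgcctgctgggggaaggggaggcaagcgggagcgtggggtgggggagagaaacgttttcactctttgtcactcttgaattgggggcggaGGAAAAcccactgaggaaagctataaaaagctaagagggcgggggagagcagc
The Dkk2 window holds 1 match, which begins 53 bases before the start, and the Enox1 window holds 0. Of 32851 windows of this length in the table, 20.4% held the letters. The 12 rises had 16 windows, 2 of them with a match, and the 12 falls had 15 windows, 7 with a match, where windows of 1 gene can overlap. Searched in the same way, AGATAA, read by GATA factors, was in 0 and 2 of these windows and in 9.99% of all windows. CAGGAA, read by ETS factors, was in 4 windows of the rises and 2 of the falls and in 25.7% of all windows. A match is only a description of the letters.

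**Figure D3:**
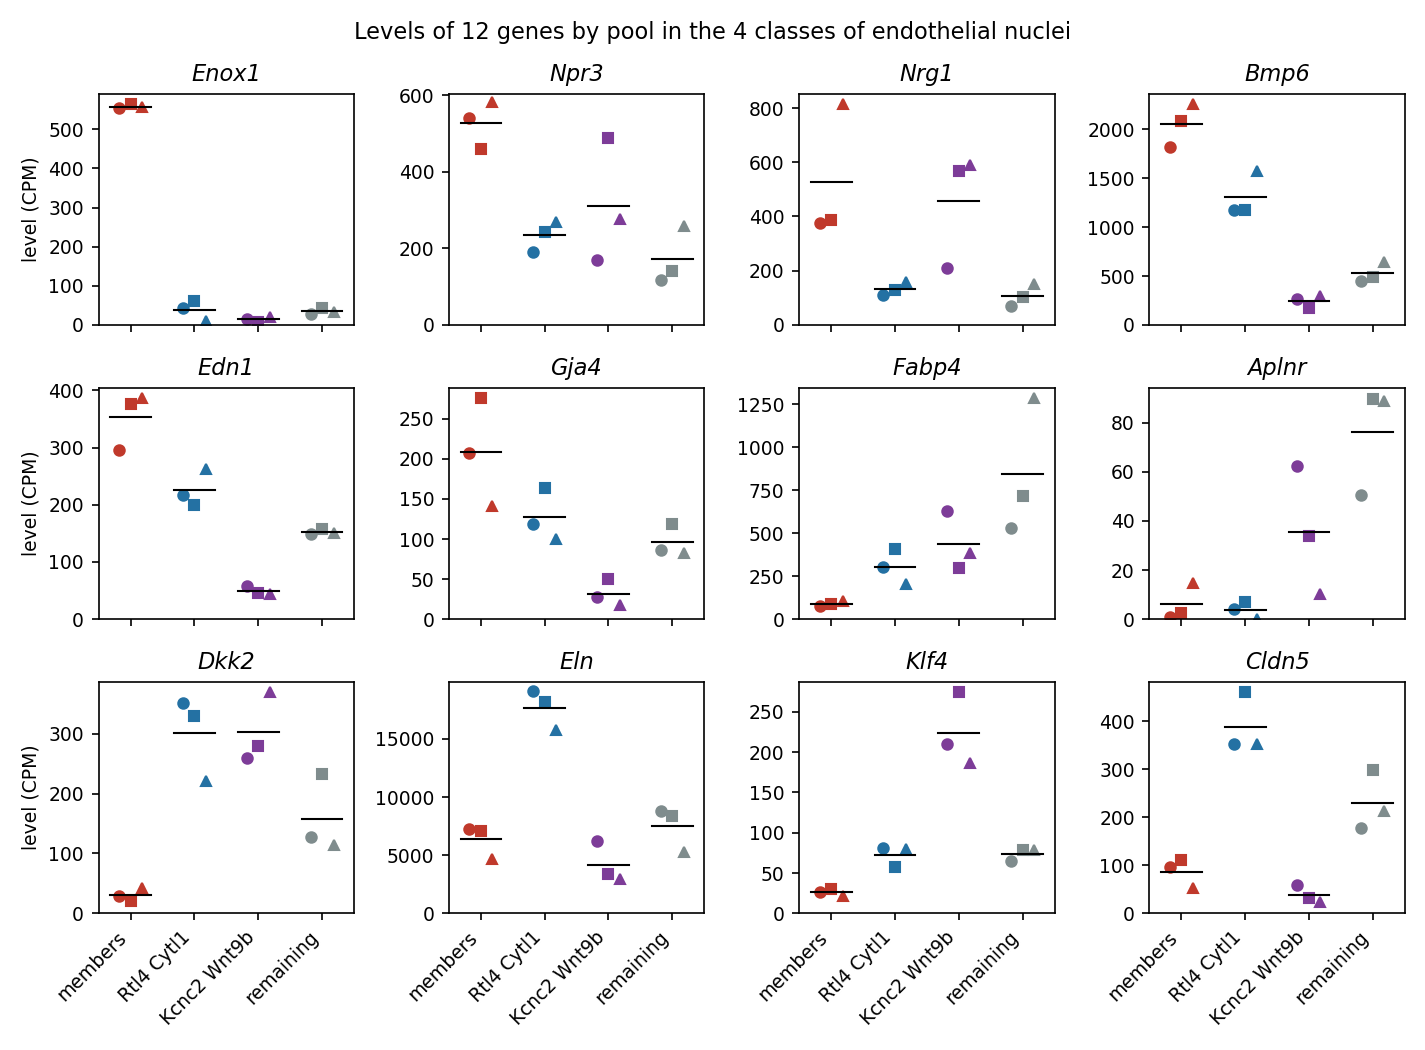
Levels (y axes, CPM) of 12 genes in the 4 classes of endothelial nuclei (x axes), with 1 symbol per pool (circle, square and triangle for pools 1, 2 and 3) and the mean as a line. Enox1 stands at 554 to 564 CPM in the members and at most 60.0 CPM in any other class and pool, while Dkk2 is at 21.4 to 42.2 CPM in the members and at least 115 CPM elsewhere.

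Among 12 endocardial genes, 6 were higher, 1 was lower and 5 did not pass, with a median log2 difference of 0.47 against -0.01 over all genes. Nrg1, the ligand neuregulin 1, was at 377, 387 and 816 CPM in the members and 109, 186 and 245 CPM in the others, a log2 difference of 1.56 ± 0.126 (edgeR adjusted p = 4.44e-07). Pool 3 was the highest in both classes, and the classes did not overlap. Npr3, the natriuretic peptide clearance receptor, was at 541, 459 and 581 CPM against 162, 240 and 265 CPM, a log2 difference of 1.31 ± 0.127 (edgeR adjusted p = 2.94e-06). Smoc1, a matricellular protein, was at 474, 483 and 471 CPM against 291, 317 and 276 CPM. Plvap, a component of endothelial diaphragms, Gata4 and Hand2, both transcription factors, also passed, at log2 differences of 0.93, 0.42 and 0.57. Without pool 1 the call on Gata4 was lost (log2 difference 0.31, edgeR adjusted p = 0.0612), and without pool 3 that on Hand2. Both were also lost without the block for pool. By DESeq2, 5 of the 12 endocardial genes were called higher and 1 lower. Nfatc1, the transcription factor of valve endocardium, did not differ beyond the spread of the pools, at 130, 126 and 150 CPM against 126, 142 and 134 CPM. Tmem108 was lower, at 223, 216 and 294 CPM against 303, 418 and 602 CPM.

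Of 13 capillary genes, 11 could be tested and all 11 were lower, 10 of them at least 2-fold, with a median log2 difference of -2.49. Fabp4, a fatty acid carrier, was at 78.5, 88.4 and 105 CPM in the members and 429, 515 and 711 CPM in the others, a log2 difference of -2.55 ± 0.101 (edgeR adjusted p = 2.08e-10). Every pool of the members lay below every pool of the others. Meox2, a homeobox factor, was at 34.0, 18.8 and 53.6 CPM against 113, 183 and 176 CPM. Aqp1, a water channel, was at 52.2, 74.1 and 34.2 CPM against 166, 198 and 105 CPM. Aplnr, the apelin receptor, had UMIs in 10 members. Rgcc, Gpihbp1, Cd36, Btnl9, Tcf15, Cd300lg and Slc28a2 fell as well, and Car4 and Timp4 were too low to test. Among the other endothelial nuclei, Fabp4 was highest where none of the 3 rules was met, at 845 ± 394 CPM, followed by the Kcnc2 Wnt9b nuclei at 437 ± 172 CPM and the Rtl4 Cytl1 nuclei at 306 ± 102 CPM, and the pools of neighbours in this order overlapped.

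The arterial list split, with 2 of 16 genes higher, 10 lower and 4 that did not pass, at a median log2 difference of -0.54. The connexins ran in opposite directions. Gja4 was at 208, 276 and 141 CPM in the members and 94.6, 128 and 75.7 CPM in the others, a log2 difference of 1.09 ± 0.0975 (edgeR adjusted p = 1.26e-06). Gja5 was at 65.3, 62.5 and 45.6 CPM against 114, 121 and 149 CPM, a log2 difference of -1.05 ± 0.145 (edgeR adjusted p = 8.69e-05). Eln, the elastin gene, was at 7295, 7118 and 4684 CPM against 13644, 11990 and 8577 CPM. Against only the endothelial nuclei that met none of the rules, the log2 difference of Eln was -0.19 and did not pass (edgeR adjusted p = 0.244), the calls on Bmx, Fbln5 and Mgp were lost as well and Hey1 could not be tested, which left 5 of the 10 falls. Without pool 2 the calls on Hey1, Bmx and Mgp were lost. Efnb2, the arterial ephrin ligand, was higher at 700, 780 and 741 CPM against 468, 514 and 543 CPM, whereas the Notch ligand Jag1 was lower at 200, 160 and 147 CPM against 367, 330 and 300 CPM. Against the Kcnc2 Wnt9b nuclei alone the list ran the other way, with 7 of 15 genes tested higher, 4 lower and a median of 0.64. Eln was at 6366 ± 1459 CPM in the members and 4193 ± 1802 CPM in that class, and the pools overlapped.

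Of 11 valve endothelial genes, 3 were higher and 5 lower, with a median log2 difference of -0.26. Edn1, the endothelin 1 precursor, was at 296, 376 and 388 CPM in the members and 171, 159 and 169 CPM in the others, a log2 difference of 1.08 ± 0.0997 (edgeR adjusted p = 1.71e-06). The forkhead factor Foxc1 and the adhesion molecule Cdh11 were the other rises, at log2 differences of 0.72 and 0.64. Nppc, Dkk2, Ednrb, Klf4 and Hapln1 were lower. Hapln1, a link protein of hyaluronan matrix, was at 22.7, 17.0 and 31.9 CPM against 63.8, 66.4 and 58.6 CPM, and its log2 difference changed from -1.43 to 0.57 when nuclei were limited to 1% mitochondrial UMIs.

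The shear stress list had 1 gene higher, 6 lower and 2 that did not pass among 9, at a median of -0.83. Klf2 was at 72.1, 124 and 59.3 CPM in the members and 197, 232 and 148 CPM in the others. Klf4 was at 25.9, 30.4 and 21.7 CPM against 93.3, 99.5 and 101 CPM, a log2 difference of -1.87 ± 0.144 (edgeR adjusted p = 2.59e-07). For both genes the classes did not overlap. Cav1, Thbd, Plxnd1 and Pcdh12 were the other falls and Edn1 the rise, with calls lost for Thbd without pool 1 and for Pcdh12 without pool 2. The flow-related enzyme Nos3 was at a log2 difference of -0.19 and the channel Piezo1 at 0.12.

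Of 18 general endothelial genes outside the rule, 2 were higher, 12 lower and 4 did not pass, at a median of -0.44. Of the 12 falls, 8 kept their call without pool 2, 6 without the block for pool and 7 without the group of members with high UMIs described below, and Esam, Vwf, Ramp2 and Clec14a were lost in each of these. Eng, the co-receptor endoglin, was at 712, 908 and 855 CPM in the members and 364, 502 and 473 CPM in the others. Sox7 was the other rise, and its call was lost without pool 1, without pool 2 and by DESeq2. Kdr, the VEGF receptor 2, was lower at 43.1, 49.1 and 34.2 CPM against 84.0, 97.4 and 126 CPM, and the tight junction gene Cldn5 was lower at 95.7, 111 and 53.6 CPM against 249, 329 and 224 CPM. Flt1, the VEGF receptor 1, did not pass, with means of 608 and 604 CPM. Of the 12 genes of the VEGF and angiopoietin list, Nrp1 was the only rise, at 1803, 1751 and 2028 CPM against 992, 1083 and 1068 CPM. Kdr, Nrp2, Vegfa, Vegfc, Pgf and Angpt1 were the 6 falls, and Vegfc was at 84.8, 122 and 136 CPM against 221, 294 and 329 CPM. Against the Rtl4 Cytl1 nuclei alone, 3 of these 12 genes were higher and 1 lower, at a median of 0.31. The sprouting tip cell list had 1 fall, Pgf, among 5 genes tested, and that call was lost without pool 2.

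In the BMP and TGF-beta list, 6 of 20 genes tested were higher and 6 lower, with a median of 0.08. The rises included a ligand, receptors and inhibitors of the BMP arm. Bmp6 was at 1824, 2087 and 2261 CPM in the members and 790, 745 and 906 CPM in the others, a log2 difference of 1.35 ± 0.0814 (edgeR adjusted p = 1.91e-08). It had UMIs in 704 of the 781 members, the most nuclei among the genes given here from this list. No background share is set beside this count. The receptor Bmpr1a, Eng, the inhibitory Smads Smad6 and Smad7 and the target Id2 were the other rises, at log2 differences of 0.52, 0.91, 0.45, 0.39 and 0.74. The calls on Smad6 and Smad7 were lost without pool 2. Id1, another BMP target, was lower at 44.9, 58.1 and 37.6 CPM against 97.4, 114 and 87.9 CPM. The ligands Tgfb1, Tgfb2 and Tgfb3, the receptor Acvrl1 and the extracellular regulator Bmper were the other falls, and Tgfb2 was at 102, 51.8 and 113 CPM against 229, 188 and 252 CPM. The calls on Bmper and Tgfb1 were lost without pool 2, and those on Tgfb1 and Tgfb3 without pool 1.

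Of the Wnt and Notch genes tested, 14 and 8 did not pass, which does not show that their levels were alike. Of 20 Wnt genes tested, Tcf7l1 was higher and Wnt2, Lef1, Tspan12, Dkk2 and Sfrp1 lower, at a median of -0.23. Lef1 and Sfrp1 were not called against the endothelial nuclei that met none of the rules, where their log2 differences were 0.12 and -0.55. The calls on Wnt2 and Tspan12 were lost without pool 2, and that on Tspan12 also without pool 3. Of 16 Notch genes, Notch2 was higher and 7 were lower (Notch3, Dll1, Jag1, Jag2, Hey1, Hes1 and Nrarp), at a median of -0.14. The call on Notch2, at a log2 difference of 0.36, was lost without pool 1 and without pool 2, as were those on the falls Hey1, Hes1 and Nrarp. Those on Notch3 and Dll1 were lost without pool 2 and that on Jag2 without pool 1, which leaves Jag1, the 1 fall of this list that DESeq2 called. The receptor Notch1 did not pass, with means of 244 and 226 CPM.

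Relatives of the 2 rule genes did not move as a block. In the list of glutamate receptors and cerebellin partners, 11 of 24 genes could be tested, 2 were higher and 4 lower, at a median of -0.35. By DESeq2, 1 rise and 1 fall of these kept their call. Grik5, a kainate receptor subunit gene, was among the rises, and its call was lost without pool 1. The glutamate receptor subunit genes Gria3, Gria4 and Grin3a were among the falls, at log2 differences of -0.96, -1.18 and -0.87, and the call on Grin3a was lost without pool 1. Of the cerebellins, Cbln1, Cbln2, Cbln3 and Cbln4 were all too low to test. In the list of transmembrane collagens, basement membrane collagens and laminins, 4 of 21 genes were higher and 9 lower, at a median of -0.33. The rises were the transmembrane collagen Col25a1, Col4a5, Lama4 and Lamb1. Lama4, a laminin chain of endothelial basement membrane, was at 578, 680 and 828 CPM against 388, 463 and 453 CPM. Without pool 2, only 3 of the 9 falls kept their call, Col4a4, Col8a1 and Col15a1, and without the block for pool 4 did. The other falls were Col4a1, Col4a2, Col4a3, Lama3, Lamb2 and Agrn.

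Guidance molecules gave 6 rises and 12 falls among 28 tested, at a median of -0.31. The rises were Sema6a, Plxna4, Efnb2, Epha4, Unc5c and Ntn4. Ntn4, a netrin of basement membranes, was at 284, 361 and 435 CPM in the members and 164, 173 and 193 CPM in the others. The calls on Epha4 and Unc5c were lost without pool 2, and that on Epha4 also without pool 1. Ntn1 was lower at 27.5 against 69.6 CPM on average, and the semaphorins Sema3a, Sema3f, Sema3g and Sema7a fell. In the venous list of 7 tested genes, the adhesion molecule Vcam1 was higher at 120, 142 and 146 CPM against 64.7, 82.6 and 44.2 CPM. Nrp2 and Il1r1 were lower, and the venous factor Nr2f2 did not pass, with a log2 difference of -0.40.

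**Figure D4:**
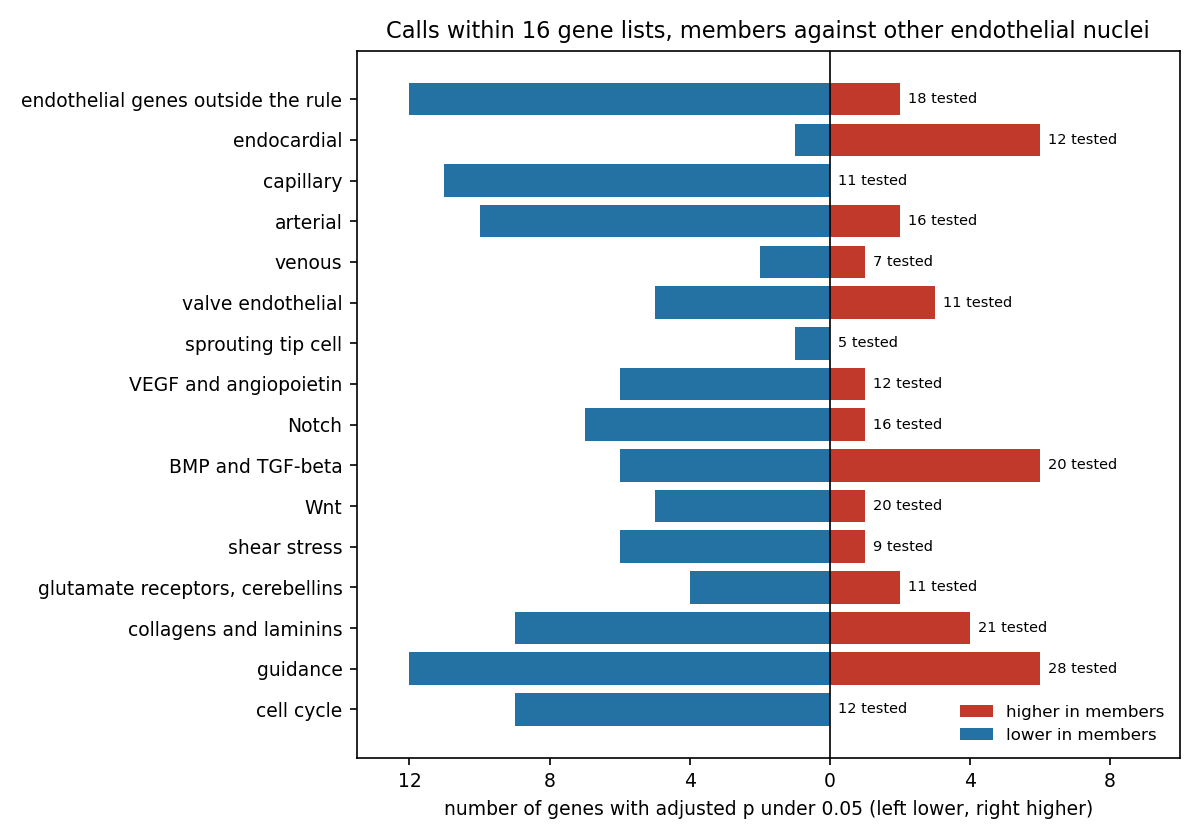
Number of genes called at an adjusted p under 0.05 (x axis, higher to the right and lower to the left) in each of 16 gene lists (y axis), Grid1 Col23a1 nuclei against the other endothelial nuclei, with the number tested beside each bar. The capillary list has 11 falls and 0 rises, and the endocardial list has 6 rises and 1 fall.

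Of 12 cell cycle genes, 9 were called lower and 0 higher, at a median of -0.92, and most of these calls rested on single pools or settings. The number of the 9 that kept their call was 2 without pool 1, 5 without pool 3 and 1 when pool was not a block. Mki67 was at 32.7, 33.1 and 18.2 CPM in the members and 68.1, 33.9 and 78.9 CPM in the others, so pool 2 showed almost no gap. Its call was lost without the block for pool. The share of nuclei with at least 2 cell cycle UMIs after thinning to 1000 UMIs was 2.73%, 3.85% and 1.45% in the members. In the other endothelial nuclei it was 7.23%, 2.59% and 6.81%, and pool 2 ran the other way. Without thinning the shares were 13.7%, 11.5% and 5.80% in the members and 22.8%, 15.8% and 13.6% in the others, lower in the members of every pool, with means of 10.3% and 17.4%. Median depth per nucleus was also lower in the members of every pool, and its part in the unthinned shares was not tested apart from the thinning. With or without thinning, the ranges over pools overlapped. With 3 pools that each hold both classes, an exact paired permutation test reaches 0.25 at best, and none was run. Of the 12 cell cycle genes, DESeq2 called 1.

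Set against the Rtl4 Cytl1 nuclei alone, 432 of 10613 genes (4.07%) were higher in the Grid1 Col23a1 nuclei and 670 (6.31%) lower. At a change of at least 2-fold, 173 (1.63%) were higher and 278 (2.62%) lower. The number called in all was 1102 (10.4%), and it was 653 without the block for pool, 531 without pool 1 and 590 without pool 2. Enox1 and Hs3st4 were again among the leading rises, and Hs3st4 was at 9.55, 10.3 and 1.48 CPM in the Rtl4 Cytl1 nuclei, a log2 difference of 3.92 ± 0.385 (edgeR adjusted p = 6.04e-06). Ptprt, Slc8a3, Ccdc85a, Sorcs1, Adgrg3, Slc22a23, Susd4, Frem1, Dscam and Gabrb1 completed the 12 rises. Ccdc85a was at 347 ± 55.7 CPM in the members and 58.3 ± 5.64 CPM in the Rtl4 Cytl1 nuclei. Of the 12 endocardial genes, 7 were higher and 1 lower, at a median of 0.64, and the rises included Nrg1 (log2 difference 1.88) and Nfatc1 (0.63).

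Arterial genes, elastin among them, were mostly lower than in the Rtl4 Cytl1 nuclei. Eln was at 19098, 18207 and 15729 CPM there, a log2 difference of -1.53 ± 0.153 (edgeR adjusted p = 7.25e-06). Fbln5, which assembles elastic fibres, had a log2 difference of -1.26, Cldn5 of -2.19 and Gja5 of -1.44, and of 15 arterial genes tested 9 were lower and 1, Gja4, higher. Sfrp1, a secreted Wnt antagonist, was at 243, 258 and 254 CPM in the Rtl4 Cytl1 nuclei against 43.6, 31.3 and 46.7 CPM. Dkk2, Fam135b, Lamc3, Atp2b2, Spock3, Ctnnd2, Samd12, Trpc5, Srgn, Cacna1a and Sod3 were the other leading falls. The basement membrane genes Col4a1 and Col4a2 were higher in the members here, at log2 differences of 0.85 and 0.90, although both were lower in them than in the Kcnc2 Wnt9b nuclei. Capillary genes gave 3 falls among 8 tested.

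Against the Kcnc2 Wnt9b nuclei, which are the smallest class, 884 of 10613 genes (8.33%) were higher and 1306 (12.3%) lower. At a change of at least 2-fold, 452 (4.26%) were higher and 677 (6.38%) lower. The 2190 genes called (20.6%) became 1076 without pool 1 and 1281 without pool 2. Bmp6 was at 262, 175 and 297 CPM in that class, a log2 difference of 3.07 ± 0.143 (edgeR adjusted p = 1.19e-09), and Edn1 was at 58.1, 45.3 and 43.9 CPM, a log2 difference of 2.76 ± 0.173 (edgeR adjusted p = 1.66e-08). Gja4, Smoc1 and Bmp4 were higher in the members as well, at log2 differences of 2.74, 2.47 and 2.02. Leading rises included Enox1, Adh1, Tenm2, Fmn2 and Lsamp. Adh1, an alcohol dehydrogenase that also oxidises retinol, was at 90.3, 71.5 and 75.2 CPM against 1.06, 2.27 and 2.58 CPM. Ahsg, the gene of the serum protein fetuin-A, was at 314 ± 24.5 CPM against 21.9 ± 8.02 CPM and had UMIs in 379 members.

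The leading falls against the Kcnc2 Wnt9b nuclei were Nppc, Serpinb9b, Wnt7a, Nts, Fam167a, Adamts8, Ptprr, Ly6c1, Kcnk10, Fam155a, Ly6a and Apold1. Nppc, the C-type natriuretic peptide precursor, was at 105, 156 and 46.5 CPM in that class and at 0, 1.79 and 1.14 CPM in the members, where 2 nuclei held a UMI. Klf2 and Klf4 had log2 differences of -2.33 and -3.09. Of 11 valve endothelial genes, 10 could be tested, and 6 were lower and 2 higher, at a median of -1.98. Hapln1 was at 338, 324 and 201 CPM in the Kcnc2 Wnt9b nuclei, a log2 difference of -3.66 ± 0.240 (edgeR adjusted p = 2.36e-08), and Tmem108 was at 1018, 1394 and 1616 CPM. Npr3 did pass here (log2 difference 0.87), but its pools overlapped, and Nrg1 did not (0.25). The endocardial list gave 4 rises and 4 falls among 12.

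Ordered by level, the members stood first among the 4 classes for Enox1, Npr3, Nrg1, Bmp6, Edn1 and Gja4, and last for Fabp4, Dkk2 and Klf4. For Bmp6 the order was members at 2057 ± 220 CPM, Rtl4 Cytl1 nuclei at 1304 ± 231, the nuclei that met none of the rules at 529 ± 100 and Kcnc2 Wnt9b nuclei at 244 ± 62.9, and no neighbours overlapped. For Edn1 the order was the same, from 353 ± 49.7 to 49.1 ± 7.81 CPM. For Nrg1 the members at 527 ± 251 CPM and the Kcnc2 Wnt9b nuclei at 457 ± 214 CPM overlapped. The same 2 classes overlapped for Npr3, at 527 ± 62.2 and 311 ± 162 CPM. For Gja4 the members at 208 ± 67.4 CPM overlapped with the Rtl4 Cytl1 nuclei at 127 ± 32.4 CPM. For Aplnr the members at 6.14 ± 7.57 CPM and the Rtl4 Cytl1 nuclei at 3.72 ± 3.56 CPM overlapped at the low end.

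Scx, whose allele carries EGFP, gave 2 UMIs in the members. EGFP gave 47 UMIs, at 7.71, 20.5 and 7.98 CPM in the members and 13.9, 7.77 and 12.3 CPM in the other endothelial nuclei, a log2 difference of -0.02 (edgeR adjusted p = 0.988). Pool 2 was the highest of the members and the lowest of the others. Cardiac muscle nuclei held 3.12 ± 1.04 CPM of EGFP.

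Markers of other cells were present in the members and in the other endothelial nuclei, and the summed levels of the larger lists overlapped between them. The 9 fibroblast and valve interstitial genes summed to 3124 to 4073 CPM in the members and 2710 to 4336 CPM in the others, the 10 cardiomyocyte genes to 669 to 1328 and 719 to 1403 CPM, and the 5 smooth muscle genes to 332 to 539 and 357 to 725 CPM. No gene of these 3 lists was at 0. Of the 3 lists, Pdgfra and Dcn were the genes called higher and Nebl, Col1a2 and Myh11 those called lower. The interstitial genes Pdgfra and Dcn had log2 differences of 1.10 and 0.72. Of 6 pericyte genes, Abcc9 and Notch3 were lower, and the list summed to 180 to 323 CPM against 235 to 400 CPM. The melanocyte list summed to 79.4, 41.1 and 9.12 CPM in the members of pools 1, 2 and 3 and 16.2, 36.0 and 10.1 CPM in the others, and the mesothelial list to 27.2, 90.2 and 116 CPM against 123, 64.6 and 52.2 CPM. The macrophage list was at 37.6 to 53.1 CPM against 48.7 to 97.5 CPM and the lymphatic list at 29.5 to 53.6 CPM against 52.2 to 74.4 CPM. The lymphatic genes Lyve1 and Ccl21a and the mesothelial gene Wt1 were lower, and the megakaryocyte gene Itga2b was higher. Of these calls on other cells' genes, those on Abcc9 and Notch3 were lost without pool 2, those on Myh11, Ccl21a and Wt1 without pool 1, and that on Itga2b without any 1 of the pools. In edgeR's test 0 of 6 macrophage genes, 0 of 5 erythroid genes and 0 of 1 Schwann cell gene passed, against 1, 1 and 0 at an unadjusted p under 0.05 and 0, 0 and 0 by DESeq2. The melanocyte genes Tyr and Dct passed as well, but 1 nucleus held 52.7% of the members' Tyr UMIs, and without pool 1 the log2 difference of Tyr was 0.68 and that of Dct -0.16, and neither passed. The part of such nuclei in the differences above was not tested beyond the alternatives given.

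The members were not uniform. Clustered without the genes of the rule, they fell into 6 groups, which are described by their leading genes, with no test and no cell type name. The first held 243 nuclei and led with Enox1 at 1343 CPM against 283 CPM in the other members, with Dgki, Ccdc85a, the muscarinic receptor gene Chrm2, Cd55 and Cdh11. The second held 207 nuclei and led with Lsamp, a neural adhesion gene, at 2328 against 379 CPM, with Ank3 and Clstn2. It had the highest levels of Bmp6, Nrg1 and Edn1 among the 6 groups, at 3240, 1001 and 637 CPM. Npr3 did not follow them, and it was at 135 CPM there and 874 CPM in the first group.

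The third group held 147 nuclei and led with Cacna2d3, Samd12, Car8, the homeobox gene Meox2 and Cyp1b1, and its Eln was at 11735 CPM against 5689 CPM in the other members. The fifth held 49 nuclei with the endothelin receptor gene Ednrb at 206 against 9.61 CPM, Tmem108 at 1463 against 159 CPM and the venous factor Nr2f2 at 246 against 41.7 CPM. In this group Col23a1 was at 1290 CPM and Grid1 at 113 CPM. The sixth held 23 nuclei, 13, 8 and 2 from pools 1, 2 and 3, with the arterial genes Gja5 at 713 against 40.02 CPM and Vegfc at 1034 against 76.4 CPM, and Emcn at 227 CPM.

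The fourth group, 112 nuclei, stood apart in depth and content. Its median was 8403.5 UMIs against 3626 to 5406 in the other groups, and 60 of its nuclei (53.6%) were among the highest doublet scores, compared with at most 9 nuclei in any other group. It led with Kcnab1, Erbb4, Cdh18, Pcdh15 and Prdm6. The 9 fibroblast and valve interstitial genes summed to 6771 CPM against 2406 CPM in the other members, the smooth muscle genes to 1075 against 228 CPM and the mesothelial genes to 193 against 8.74 CPM. Its endothelial genes were lower, with Emcn at 687 and Cdh5 at 165 CPM. When these nuclei were left out, 2873 genes were called against the other endothelial nuclei, 1931 of them shared with the 2153 and in the same direction.

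**Figure D5:**
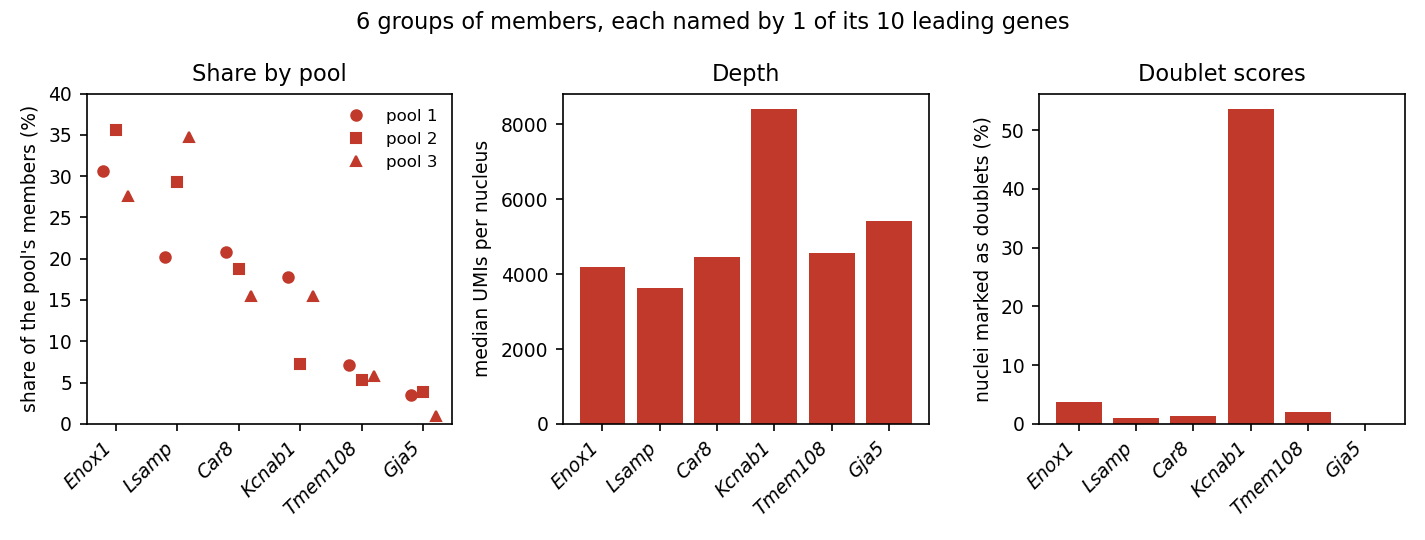
The 6 groups of members (x axes, each named by 1 of its leading genes), with the share of each pool's members (left, %), the median UMIs per nucleus (middle) and the share of nuclei marked as doublets (right, %). The group named by Kcnab1 has a median of 8403.5 UMIs and 53.6% marked nuclei, and the group named by Enox1 is the largest at 243 nuclei.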

How the data were processed

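The authors deposited matrices of raw UMI counts per gene and nucleus, and per the file headers the software was Cell Ranger 7.1.0. The submitters' processing notes name Cell Ranger 7.0.1 and 7.1.0 and the build GRCm39. The matrices hold 36167 features, checked to be whole numbers. The chromatin part of the assay was not analysed here, and no gene coordinates are given except those of the RefSeq promoter table (GRCm38.p6), in which 11 of the 12 leading rises and 9 of the 12 leading falls had an entry.

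Nuclei were gated and classed by the rule of the report. The members, the gene lists and the markers were chosen with earlier results of these data known. Scrublet's automatic threshold marked 0, 0 and 1 nuclei of the 3 pools, so it did not work, and doublets stayed in. The highest scores, at 0.8% per 1000 deposited nuclei, were left out as an alternative. Python 3.11.15 with scanpy 1.11.5 was used.

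Counts were summed per pool and class without the 37 rule and mitochondrial genes. The quasi-likelihood test of edgeR 4.0.16, run in R 4.3.3, followed filterByExpr and TMM scaling. Pool was a block, since each pool is 1 library that holds every class. DESeq2 1.42.0 was an alternative. Standard errors are the log2 difference divided by the square root of F. Tested on simulated data, the fit against the other endothelial nuclei recovered 74% of 2-fold and 45% of 1.5-fold changes, with 5 false calls. Against Rtl4 Cytl1 nuclei it recovered 74% and 22%, and against Kcnc2 Wnt9b nuclei 50% and 17%. The simulated counts followed the trend of spread in the fit, with no variation of single genes around it. The false calls are therefore no estimate of those in the real data. CPM is counts scaled to 1000000 UMIs of the class and pool, with no length correction, and compares a gene between classes and not genes with each other.

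Named genes are those of 16 lists of programs and 11 lists of other cell types, EGFP and Scx, and in each comparison the 12 largest rises and falls. These had an adjusted p under 0.05, the same direction in all 3 pools and at least 20 CPM in the higher class, and symbols of the Gm, LOC and Rik forms were counted but not named. Values of 3 genes of the lists are not reported here. Groups of members came from 2000 variable genes, 20 components, 15 neighbours and leidenalg 0.10.2 at a resolution of 0.5, with leading genes in at least 10% of a group's nuclei and a pseudocount of 10 CPM. Nuclear RNA includes unspliced RNA. The pools hold many roots each, so the spread between them understates that between animals.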

Additional observations from a re-analysis of the deposited data

How the results depend on the processing

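For the 24 leading genes of each comparison, all 389, 321 and 312 values under the alternatives kept their direction and their call. Of 4566 values for the 282 named and list genes against the other endothelial nuclei, 333 lost the call, 151 gained it and 9 changed sign. Thinning to 1000 UMIs left 6 of the 11 capillary falls and at most 1% mitochondrial UMIs left 0 of the 9 cell cycle falls, where a gene too low to test counts as not kept.

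Counts of called genes under the settings that moved at least 1 of them by over 1.5 times are given in the order other endothelial nuclei (2153), Rtl4 Cytl1 nuclei (1102) and Kcnc2 Wnt9b nuclei (2190). DESeq2 called 928, 575 and 1349. Thinning to 1000 UMIs gave 1137, 672 and 848, and at most 1% mitochondrial UMIs, with fewer nuclei, gave 941, 241 and 453. Without the replicate block the counts were 1124, 653 and 1619, of which 1124, 653 and 1615 were among the genes called with it. Leaving out 1 pool in turn gave 1360 to 2268, 531 to 956 and 1076 to 2218. The cause was not tested beyond this.

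Of the 9 sign changes, Icam2 (0.14), Ramp2 (0.28), Lef1 (0.12), Sema3a (0.020) and Slit2 (0.053) turned positive against the endothelial nuclei that met none of the rules, an alternative chosen after seeing the data, and none passed there. Hapln1 (0.57) turned at 1% mitochondrial UMIs and Dct without replicate 1, with -0.16 to 2.66 over the fits without 1 pool. Tcf21 (-1.72) and Msln (-2.85) turned when the group of members with high UMIs was left out, also chosen after seeing the data.

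The share of members was 26.7% with at least 5 UMIs and 15.8% when the sums were taken after thinning, and without 1 pool it was 30.4 to 33.2%. The cycling share was 8.02% with at least 1 UMI and 10.3% without thinning, and without 1 pool 2.09 to 3.29%. TMM, RLE and unscaled library sizes left the median of all genes within 0.04 of 0 in log2.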

Other observations

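Alveolar epithelial genes, a list made after Sftpc was seen among the differences, gave 218 UMIs in the members over 9 genes. A single nucleus held 209 of them, including 84 of the 90 Sftpc UMIs, and 9 members held any. The 1776 other endothelial nuclei held 23 UMIs, with at most 2 in any nucleus.

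Lsamp was higher in the members at 799 ± 136 CPM against 181 ± 6.71 CPM, with a log2 difference of 2.13 ± 0.102 (edgeR adjusted p = 1.56e-09). Of the 7 features that follow Lsamp in the table, 5 could be tested, and 3 without a gene name (LOC118568277, LOC118567340 and Gm52229) rose with log2 differences of 3.30, 3.31 and 3.06. The other tested features, LOC118567341 and Gap43, were lower, with log2 differences of -2.63 and -1.52. These were chosen after their values were seen. Gm52229 lies within the span of Lsamp in RefSeq on GRCm38.p6, and whether reads of nuclear RNA were counted by strand is not given in the sources used here, so reads of Gm52229 cannot be told apart from those of Lsamp. For the others no position was used here.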
